A study of Mus musculus with 464 samples.

Results

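The genes described here are the LIM homeodomain transcription factors Lhx1, Lhx2, Lhx3, Lhx4, Lhx5, Lhx9, Isl1, Isl2 and Lmx1b together with Mnx1, a homeodomain factor of motor neurons that has no LIM domains. They were chosen by name, 10 of the 21973 genes in the expression table, and all 10 were found in it. Expression was measured cell by cell in mouse R1 embryonic stem cells, for which the labels name no genetic change. The cells had been grown as hanging-drop embryoid bodies, which are free-floating aggregates, for 48 hours and then in medium with retinoic acid, at a stated 0.5 mM, for 4 days. Each column of the table is labelled as 1 cell of this 1 group, with no untreated control and no separate cultures named, so the cells were treated as 1 sample and no test between samples was possible.

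LIM homeodomain factors pair a DNA-binding homeodomain with LIM domains that bind cofactors such as Ldb1, and they assemble with each other through these cofactors. In the embryonic spinal cord and hindbrain, combinations of them mark the neuron classes that arise along the dorsoventral axis. Isl1 with Lhx3 marks newly made motor neurons, Lhx3 without Isl1 marks the V2 interneurons, and Lhx1 and Lhx5 mark several interneuron classes, many of them inhibitory. Lhx2 and Lhx9 mark dorsal commissural interneurons, and Lmx1b marks dorsal excitatory and serotonergic neurons. Retinoic acid, a vitamin A derivative, drives stem cell aggregates toward such caudal neural fates.

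The columns fall into 2 sets by name. After a filter on gene number and mitochondrial share, 55 columns of 1 set had a near copy in the other set, with a median Pearson correlation of 0.98 across genes against at most 0.92 for any other pair of columns. These were taken as repeat measurements, and values are given over distinct cells. The detection bound was 1 TPM per gene and cell, where TPM is a transcript share corrected for gene length. Shares carry exact Clopper-Pearson 95% intervals that cover counting error only. Read depth per cell is unknown, and the number of genes above 0, with a median of 6740 per cell, is its only stand-in.

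The promoters of 4 of the genes that define the cell combinations described below are shown. Isl2, Lhx4 and Lhx5 define them too and are not printed. The sequences are RefSeq's, of assembly GRCm38.p6, and each holds the 250 bases before a start site on the gene's own strand, 5′ to 3′. All 4 lie on the minus strand, Isl1 at chr13:116309689-116309938, Mnx1 at chr5:29478471-29478720, the outer of the 2 Lhx3 starts at chr2:26208250-26208499 and Lhx1 at chr11:84525535-84525784. Capitals mark TAAT, the core letters that most homeodomains bind, read on either strand (ATTA).
Isl1: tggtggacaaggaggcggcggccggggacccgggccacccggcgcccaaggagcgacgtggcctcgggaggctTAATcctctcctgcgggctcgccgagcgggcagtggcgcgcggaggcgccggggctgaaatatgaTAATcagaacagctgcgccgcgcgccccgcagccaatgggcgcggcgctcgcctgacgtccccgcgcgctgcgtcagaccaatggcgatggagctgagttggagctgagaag
Mnx1: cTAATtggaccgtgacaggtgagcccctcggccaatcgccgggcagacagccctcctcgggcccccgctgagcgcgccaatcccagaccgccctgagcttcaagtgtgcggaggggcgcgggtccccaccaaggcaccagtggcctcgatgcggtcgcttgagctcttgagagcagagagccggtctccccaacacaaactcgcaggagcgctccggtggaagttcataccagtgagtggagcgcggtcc
Lhx3: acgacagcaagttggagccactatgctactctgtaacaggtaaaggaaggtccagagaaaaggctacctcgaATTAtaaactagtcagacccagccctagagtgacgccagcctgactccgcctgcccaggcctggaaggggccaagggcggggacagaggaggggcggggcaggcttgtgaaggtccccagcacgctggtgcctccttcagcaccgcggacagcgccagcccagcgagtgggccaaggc
Lhx1: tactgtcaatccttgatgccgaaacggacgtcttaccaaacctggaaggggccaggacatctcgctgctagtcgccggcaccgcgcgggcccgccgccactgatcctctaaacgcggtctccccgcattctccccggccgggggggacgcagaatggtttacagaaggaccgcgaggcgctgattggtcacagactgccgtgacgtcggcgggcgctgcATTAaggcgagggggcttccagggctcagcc
Isl1 held 2 of these cores, and Mnx1, Lhx3 and Lhx1 held 1 each. Entries matched 9 of the 10 genes, with 11 start sites. Of the others, the Lhx9 window held 2 cores, and the windows of Isl2, Lhx4, Lmx1b, the inner Lhx3 start and both Lhx2 starts held none. The printed windows thus hold the core more often than the members' windows as a whole. Over all 32851 mouse promoters of the same length, 54.9% held the core. The E-box CANNTG, the letters bound by proneural factors such as Neurog2, was in 66.2% of all promoters. Of the members' 11 windows, those of Isl1, Mnx1, the inner Lhx3 start, Lhx9 and Lmx1b held it, with at most 2 in a window. The others held none. AGGTCA, letters bound by retinoic acid receptors, was in 14.02% of all promoters and in none of the 11 windows. These are letter matches only. No binding was measured, and a window without a match says nothing of sites elsewhere.

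In the same assembly, Isl1 spans 116298270 to 116309688 of chromosome 13 and Isl2 spans 55538677 to 55547667 of chromosome 9. Mnx1 spans 29473823 to 29478470 and Lhx5 120431886 to 120441457, both of chromosome 5. Lhx3 (26200212 to 26208249), Lmx1b (33560965 to 33641208) and Lhx2 (38339271 to 38369737) lie on chromosome 2. Lhx9 (138825186 to 138848839) and Lhx4 (155698031 to 155751726) lie on chromosome 1. Lhx1 spans 84517975 to 84525534 of chromosome 11, and the long noncoding RNA gene Lhx1os starts beside it at 84525660. All 10 are annotated as protein-coding genes.

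Lhx1 and Lhx5 were the most widely detected of the 10 genes, and Lhx9 the least. Lhx1 was in 38.7% of all cells (95% interval 33.9 to 43.7%) and Lhx5 in 27.05% (22.8 to 31.7%). Lhx3 was detected in 63 cells (15.6%) and Isl1 in 42 (10.4%). These 4 genes were the only members detected in at least 10% of cells. Lhx4 was in 35 cells, Mnx1 in 30, Isl2 in 25, Lhx2 in 24, Lmx1b in 16 and Lhx9 in 1. In this order the intervals of Lhx1 and Lhx5 did not overlap, nor did those of Lhx5 and Lhx3, whereas from Lhx3 down to Lmx1b each gene's interval overlapped the next one's. All are shares of the same cells, so overlap of intervals does not test 1 gene against another. Levels within positive cells ordered the genes differently. Isl1 had the highest median among cells that had it, 62.5 TPM, with a range of 1.41 to 730. The median was 23.02 TPM for Lhx1 (1 to 225.2), 28.6 TPM for Lhx5 and 30.8 TPM for Lhx3. Isl1 was thus scarce but abundant where present, while Lhx1 was broad and moderate. Lmx1b, at a median of 4.31 TPM, and Lhx2, at 9.41 TPM, were low where present.

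Repeat columns gave a measure of technical error. Over the 55 pairs and the 10 genes there were 66 instances of detection in at least 1 column of a pair, and in 50 of them (75.8%) both columns had the gene. Most of these 50 were of Lhx1 (20 pairs with both columns, 5 with 1 only) and Lhx5 (17 and 0). The same counts were 0 and 2 for Isl1, 2 and 2 for Isl2, and 2 and 1 for Mnx1. They were 1 and 5 for Lhx3 and 0 and 1 for Lhx4. Of the 16 found in 1 column only, the highest value was 11.2 TPM, for Isl1. A value of up to 11.2 TPM was therefore not always repeatable. The pooled share rests mostly on Lhx1 and Lhx5, and few pairs bear on the other genes. Only 2 neuron-high cells were among the pairs.

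Cells were then divided by genes that are no members. Neuron-high cells had Nefl, Nefm (neurofilament subunits), Mapt (the axonal protein tau) and Stmn2 (a regulator of axonal microtubules) each at 10 TPM or more. There were 63 of them (15.6%), 28 in set 1 and 35 in set 2. Stmn2 had a median of 773 TPM in them and Mapt a median of 50.2 TPM. Endoderm-marked cells, 27.8% of all, had at least 5 of 10 primitive endoderm markers such as Gata4 and Sox17 and were not neuron-high. The remaining 56.6% were neither, and among the progenitor genes Sox2 was in 71.96% and Pax6 in 80.4% of all cells. All 10 general neuron genes tested, such as Tubb3 and Dcx, were higher in neuron-high than in remaining cells by the size rule below, whereas 6 of 10 progenitor genes and 6 of 8 cell cycle genes were lower. Neuron-high cells also had more genes above 0, with a median of 7179 against 6628 in remaining and 6758.5 in endoderm-marked cells. The part of gene number in the differences below was not tested.

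Members from motor neurons and interneurons alike were more often found, and at higher mean level, in neuron-high cells. A gene was called higher when its mean TPM was at least 2-fold higher and its detected share at least 10 percentage points higher. By this rule 7 of the 9 members that could be tested were higher in neuron-high than in remaining cells and 0 were lower, against 9.12% of all 13582 tested genes higher and 4.36% lower. The members' median log2 fold was 1.97, and that of all tested genes was 0.03. Lhx2 and Lmx1b were not called, and Lhx9 was found in too few cells to test.

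**Figure D1:**
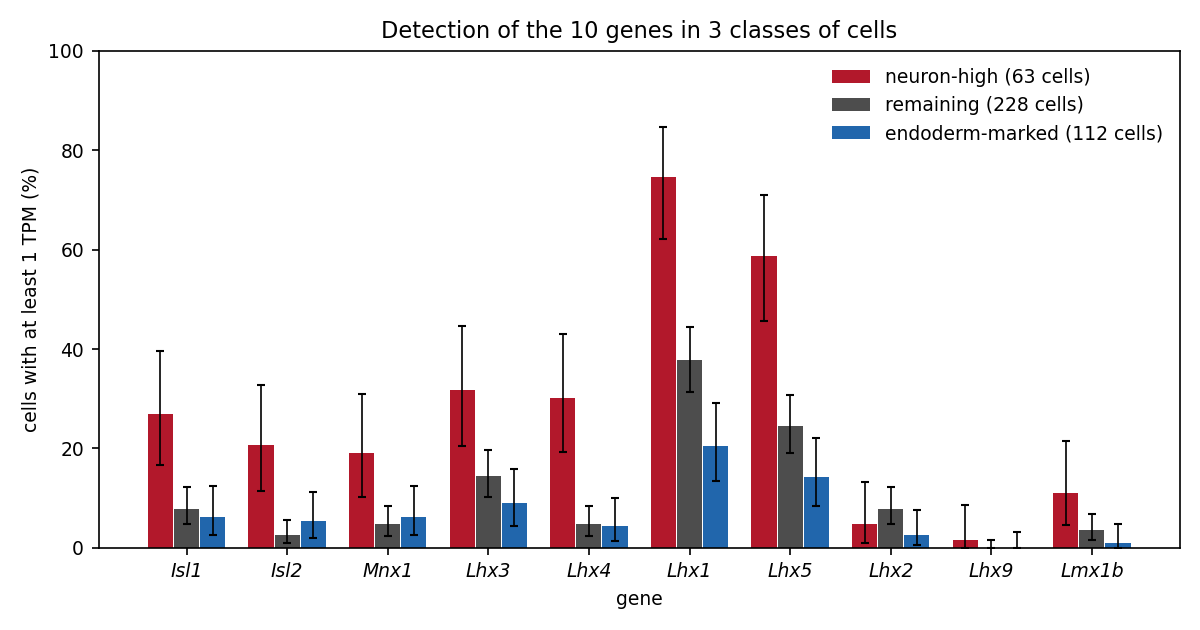
Share of cells with at least 1 TPM (y axis, percent) for each of the 10 genes (x axis) in neuron-high, remaining and endoderm-marked cells. Bars are shares and whiskers exact 95% intervals. Lhx1 was in 74.6% of neuron-high cells, and 8 of the 10 genes have their tallest bar there by more than 5 points, Lhx2 and Lhx9 being the exceptions.

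Among the motor neuron factors, Isl1, which is needed for motor neurons to form, was detected in 17 of 63 neuron-high cells (26.98%, 16.6 to 39.7%). It was found in 18 remaining cells (7.89%, 4.75 to 12.2%), and its mean was 42.7 against 10.9 TPM. Where detected, its values in neuron-high cells ran from 2.18 to 730 TPM with a median of 85.2, and those in remaining cells from 1.41 to 670 with a median of 54.6, so the ranges overlapped fully and the share of positive cells differed more than the level within them. Isl2, its paralog, was in 13 neuron-high (20.6%) and 6 remaining cells (2.63%), with means of 11.7 and 1.13 TPM, a 10.3-fold difference. Mnx1, a repressor of interneuron programs in motor neurons, was in 12 (19.05%) and 11 (4.82%), with means of 4.60 and 1.17 TPM. On another scale, the difference of mean log2(TPM + 1), Isl2 (0.93) and Mnx1 (0.55) fell under a bound of 1 and were not called, and Mnx1 was also lost with detection at 10 TPM or when only the 4000 highest genes of a cell counted as detected.

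Lhx3 was detected in 20 of 63 neuron-high cells (31.7%, 20.6 to 44.7%) and in 33 remaining cells (14.5%, 10.2 to 19.7%). Its mean was 7.04-fold higher, 37.7 against 5.34 TPM, and a single cell reached 608 TPM. Lhx4, its close paralog, was in 19 (30.2%) and 11 cells (4.82%), with means of 6.73 and 1.12 TPM. The intervals of the 2 classes did not overlap for either gene, though Lhx4 was not called on the scale of mean log2(TPM + 1), where it differed by 0.98, or when only the 4000 highest genes of a cell counted as detected.

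Lhx1 was in 47 of 63 neuron-high cells (74.6%, 62.1 to 84.7%) and in 86 remaining cells (37.7%, 31.4 to 44.4%). Its mean was 31.6 against 13.4 TPM, 2.37-fold higher, the smallest of the 7 called differences. In set 1 alone the log2 fold was 0.998, just under the rule. Lhx5 was in 37 (58.7%) and 56 cells (24.6%), with means of 32.9 and 13.03 TPM. When each cell was rescaled by its broadly detected genes, the log2 fold of Lhx5 was 0.66 and no longer called.

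The genes of other neuron classes split from these. Lhx2 was in 3 neuron-high (4.76%) and 18 remaining cells (7.89%), with means of 0.55 and 1.01 TPM. Lhx9 was detected in 1 cell at 49.5 TPM, which was neuron-high and also had Lhx2, Isl1, Lhx1 and Lhx5. It was detected in 0 remaining cells, with an interval of 0 to 1.605%. Lmx1b was in 7 neuron-high (11.1%) and 8 remaining cells (3.51%), but its highest value in neuron-high cells was 8.21 TPM, and its mean was 0.45 against 0.66 TPM. The direction of these uncalled genes turned with the column set, at a log2 fold of 1.20 for Lmx1b in set 2 against -0.55 over both, and of 0.48 for Lhx2 in set 1 against -0.86. Of the other LIM homeodomain genes, Lhx6, Lhx8 and Lmx1a, none was in more than 1 neuron-high cell. The cofactors were broad instead. Ldb1 was in 56 of 63 neuron-high (88.9%) and 77.6% of remaining cells, and of 10 cofactor genes only Lmo2 was called higher, in 19 neuron-high and 12 remaining cells.

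Graded by how many of the 4 neuron genes reached 10 TPM, the members came up at different points. There were 95 cells with 1 of the 4 at that level, 17 with 2, 34 with 3 and 63 with all 4, and all others had none. Lhx1 was in 17.5% of cells with 0, 42.1% with 1, 58.8% with 2, 73.5% with 3 and 74.6% with 4. Lhx5 went from 8.25% to 28.4%, 47.1%, 61.8% and 58.7%. Both were thus already common in cells with 3 of the 4 genes. Lhx3 was in 2.58%, 22.1%, 23.5%, 38.2% and 31.7%, whereas Lhx4 was in 1.03%, 4.21%, 11.8%, 23.5% and 30.2%. With only 1 neuron gene high, Lhx3 was found in 21 cells and Lhx4 in 4. Isl1 was in 3.61% of cells with 0 and 10.5% with 1, and in 20.6% with 3 and 26.98% with 4. Isl2 was in 1.03%, 4.21%, 5.88%, 14.7% and 20.6%. Neighbouring steps overlapped within their intervals for each of these genes and Mnx1, except for Lhx1, Lhx5, Lhx3 and Mnx1 between 0 and 1. The step with 2 holds few cells.

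**Figure D2:**
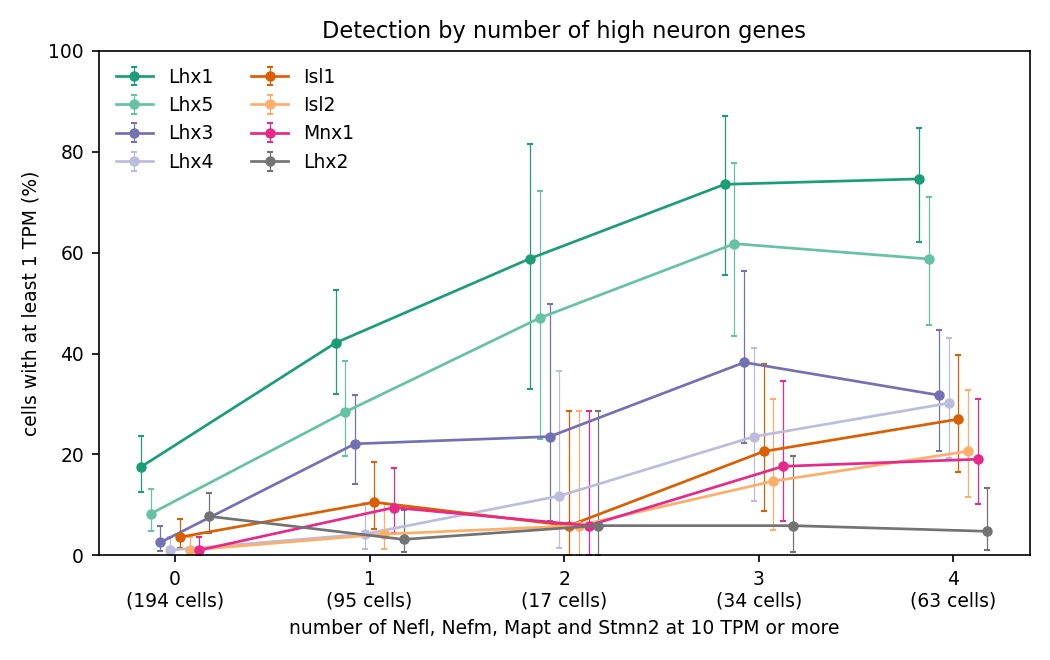
Share of all distinct cells, endoderm-marked ones included, with at least 1 TPM (y axis, percent) by the number of Nefl, Nefm, Mapt and Stmn2 at 10 TPM or more (x axis, cells per step in brackets), 1 line per gene, with exact 95% intervals. Lhx1 climbs from 17.5% to 74.6% and Isl1 from 3.61% to 26.98%, while Lhx2 stays between 3.16% and 7.73%.

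In the remaining cells, those with Lhx1 or Isl1 more often had neuron genes, and those with Lhx2 did not. Of the 86 such cells with Lhx1, 80.2% had Dcx, a protein of migrating young neurons, against 23.9% of those without it. Stmn2 was in 72.1% and 36.6%. The proliferation gene Mki67 went the other way, in 59.3% and 88.03%. Gene number differed little, with medians of 6742.5 and 6604. Of remaining cells with Isl1, 77.8% had Stmn2, against 47.6% of those without it, and Neurog2, a proneural factor of motor neuron progenitors, was in 13 of 18 of them (72.2%) and in 36.2% of those without it. Dbx1, a gene of ventral interneuron progenitors, was in 5 of those 18 (27.8%) and in 59.5% of the remaining cells without Isl1. It was in 56 of the 86 with Lhx1 (65.1%) and in 52.1% of those without Lhx1, a smaller difference. Remaining cells with Lhx2 had Stmn2 in 44.4% and Dcx in 33.3%, and those without it in 50.5% and 46.2%.

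In endoderm-marked cells Lhx1 and Lhx5 were lower than in remaining cells. No member was called higher than in remaining cells, against 12.1% of all tested genes, and these 2 were called lower, against 8.74%. Lhx1 was in 23 of them (20.5%) and Lhx5 in 16 (14.3%). The other members were not called, and Isl2 was in 5.36% of endoderm-marked and 2.63% of remaining cells and Mnx1 in 6.25% and 4.82%. After these values were seen, the class was split by whether a cell also had at least 5 of 10 progenitor or 5 of 10 neuron markers. Of the 58 cells with such neural markers, 20 had Lhx1, 10 had Lhx3 and 7 had Isl1. Of the 54 without, 3 had Lhx1 and 0 had Lhx3 or Isl1. For 0 of 54 the interval was 0 to 6.603%. The cells with both kinds of marker had more genes above 0, with a median of 7706.5 against 5958. Whether they hold RNA of more than 1 cell was not tested.

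Each of the 63 neuron-high cells had at least 1 member, and 52 (82.5%, 70.9 to 90.9%) had at least 2. At 10 TPM as the bound, 56 (88.9%) had at least 1. Of the endoderm-marked cells 44 (39.3%) had at least 1, as did 54.4% of the remaining cells. The median neuron-high cell had 2 members, and 1 cell had 7. The 63 cells held 34 different combinations, 23 of them seen once. The commonest was Lhx1 with Lhx5 and nothing else, in 17 cells.

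Pairs of paralogs were found together. Of the 37 neuron-high cells with Lhx5, 34 had Lhx1 (91.9%, 78.1 to 98.3%), as did 13 of the 26 without Lhx5. Of the 20 cells with Lhx3, 15 had Lhx4 (75%, 50.9 to 91.3%), as did 4 of the 43 without (9.30%). Of the 17 cells with Isl1, 10 had Isl2 (58.8%, 32.9 to 81.6%), as did 3 of the 46 without (6.52%). In each column set the same held, with Isl2 in 5 of 6 Isl1 cells of set 1 and in 5 of 11 of set 2, and Lhx4 in 7 of 8 and 8 of 13 Lhx3 cells. Outside neuron-high cells, Lhx4 was in 11 of 43 cells with Lhx3 and in 1.68% of those without, and Lhx5 in 55.05% of cells with Lhx1 and 5.19% of those without. Isl2 was there in 5 of 25 cells with Isl1 (20%) and 2.22% of those without, but in set 2 in 1 of 19 (5.26%) and 1.69%.

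Across these families some pairs went together and others parted. Mnx1 was in 8 of the 17 neuron-high cells with Isl1 (47.1%) and in 4 of the 46 without (8.70%). Lhx4 was in 9 of 13 cells with Isl2 (69.2%, 38.6 to 90.9%) and in 10 of 50 without (20%, 10.03 to 33.7%). Lhx5, in contrast, was in 6 of 19 cells with Lhx4 (31.6%, 12.6 to 56.6%) and in 31 of 44 without (70.5%, 54.8 to 83.2%). Set 1 gave 3 of 9 and 14 of 19, and set 2 gave 3 of 10 and 18 of 27. Every distinct neuron-high cell had at least 1 member, so each of the 44 without Lhx4 had to have another, which bears on this difference. Isl1 and Lhx1 did not exclude each other at this threshold. Lhx1 was in 11 of 17 cells with Isl1 (64.7%) and 36 of 46 without (78.3%), with overlapping intervals, and both reached 10 TPM in 6 cells.

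**Figure D3:**
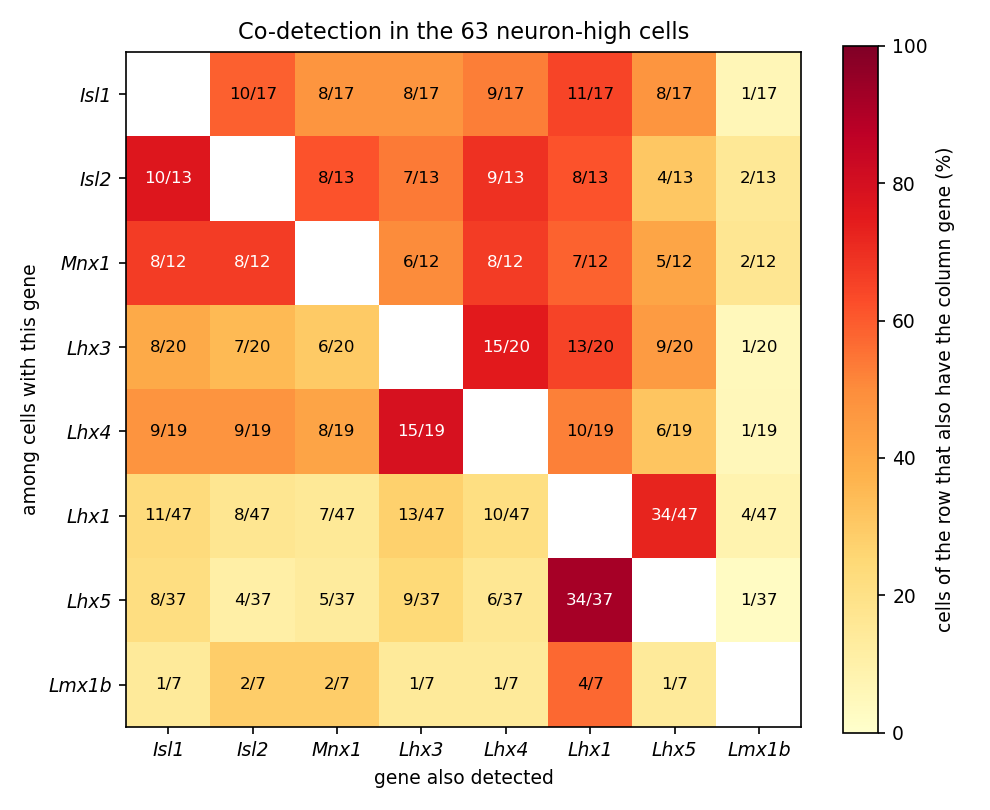
Share of the neuron-high cells with the row gene that also had the column gene (colour, percent, with the counts printed), at 1 TPM or more. Lhx1 is in 34 of 37 cells with Lhx5, Isl1 in 10 of 13 with Isl2 and Lhx4 in 15 of 20 with Lhx3, whereas Lhx5 is in 4 of 13 with Isl2.

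Combinations were then read against genes that did not define them. The motor neuron combination, Isl1 with at least 1 of Isl2, Mnx1, Lhx3 and Lhx4, was present in 12 of 63 neuron-high cells (19.05%, 10.2 to 30.9%). In the 12 cells Isl1 ran from 5.52 to 730 TPM with a median of 145.9. All 5 of these genes were in 4 cells. Of the 12 cells, 5 came from set 1 and 7 from set 2. A cell had 192.7 TPM of Isl1, 50.5 of Isl2, 95.6 of Mnx1, 61.7 of Lhx3 and 40.5 of Lhx4, with Lhx1 at 0 and Lhx5 at 0.45. Another had 92.3 TPM of Isl1 and 105.9 of Isl2, but also 52.9 of Lhx1 and 21.3 of Lhx5.

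Transmitter genes followed the motor neuron combination. Slc18a3, the vesicular acetylcholine transporter, was detected in all 12 cells (100%, 73.5 to 100%), from 8.27 to 415.1 TPM with a median of 72.3. Chat, the enzyme that makes acetylcholine, was in 8 of the 12 (66.7%, 34.9 to 90.1%), with a median of 14.1 TPM over the 12. Slc18a3 lies within the Chat gene, so reads of these 2 may have been split by the authors' counting. In neuron-high cells with Lhx1 or Lhx5 but none of Isl1, Isl2, Lhx3 and Lhx4, 26 in number, Slc18a3 was in 4 (15.4%, 4.36 to 34.9%) and Chat in 1. The intervals of Slc18a3 did not overlap. Mnx1 was allowed in the 26 cells, and the cell with Chat had 55.4 TPM of Mnx1 and 0.82 of Isl1, just under the detection bound. The 12 cells also had more genes above 0, with medians of 7877 and 6882.5. Outside neuron-high cells, 16 remaining cells had the motor neuron combination, 8 of them had Slc18a3 and 4 had Chat, against 0.962% and none of the remaining cells with no member, where the interval for Chat was 0 to 3.48%.

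With all Isl1 cells set against the other 46 neuron-high cells, Isl2 and Mnx1 were called higher among the 8 other members tested and none was lower, where 5.1% of all tested genes were higher and 3.87% lower. Of the 10 motor neuron genes tested, 3 were higher and 0 lower, namely Chat, Slc18a3 and Nkx6-2, a factor of ventral progenitors. Among these 10, Tbx2 and Tbx3 were at 0 in every neuron-high cell and could not be called. Chat was in 9 of 17 and 2 of 46 cells. Of 5 transmitter genes tested, 1 was lower and 0 were higher. The lower one was Gad1, which makes the inhibitory transmitter GABA, in 3 of 17 (mean 1.79 TPM) and 17 of 46 cells (12.003 TPM). Gad2, the other GABA-making enzyme, was not called, in 9 of 17 (mean 16.4 TPM) and 24 of 46 cells (19.3 TPM). Isl1 is also a gene of sensory neurons, but none of 8 sensory neuron genes was called in either direction. Their summed level had a median of 60.3 TPM (10.5 to 226.8) in Isl1 cells and 96.8 TPM (0 to 325.04) in the others, and their part in the result was not tested.

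Cells with Lhx3 or Lhx4 but neither Isl1 nor Isl2 formed another set, of 14 neuron-high cells, chosen after the combinations were seen. Their Lhx3 values ran from 0 to 608 TPM with a median of 66.1, and those of Lhx4 from 0 to 84.2 TPM with a median of 8.66. The cell with the most Lhx3 had 84.2 TPM of Lhx4 and 208.25 of Slc18a3, with Lhx1 and Lhx5 at 0. The next had 330.7 TPM of Lhx3 and 74.6 of Lhx4, with Slc18a3 at 0. Slc18a3 was in 4 of the 14 (28.6%, 8.39 to 58.1%), below the interval of the motor neuron combination, and Chat was in 1. Gad2 was in 7 (50%, 23.04 to 76.96%) and the glutamate transporter gene Slc17a6 in 3, so the transmitter genes were mixed. Sox14, an interneuron transcription factor gene, was in 2. With repeat columns included, Slc18a3 was in 1 of 5 such cells of set 1 and 3 of 10 of set 2. Of the 14 cells, 2 had at least 5 endoderm markers, and without them 4 of 12 had Slc18a3 and 7 of 12 had Gad2. In the 21 remaining cells with the same members, Slc18a3 was in 1 and Gad2 in 8.

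All 24 neuron-high cells with Lhx3 or Lhx4 were also set against the 39 without. Isl1, Isl2 and Mnx1 were called higher and Lhx1 and Lhx5 lower among the 7 other members tested, where 5.46% of all tested genes were higher and 3.86% lower. Every neuron-high cell had at least 1 member, so each of the 39 had to have a member other than Lhx3 and Lhx4. The lower calls are thus partly built into the split. Lhx1 was in 14 of 24 cells (mean 16.3 TPM) and 33 of 39 (41.02 TPM). Of 10 motor neuron genes, 5 were higher and none lower, and Nkx6-1, a ventral patterning factor, was in 19 of 24 and 10 of 39 cells. Of 7 V2 interneuron genes, 1 was higher and none lower, Sox21, in 19 of 24 and 20 of 39 cells. Of 7 V0 and V1 interneuron genes, 6 were lower, Evx1, En1, Pax2, Pax8, Otp and Dbx1, and of 8 dorsal interneuron genes 4 were lower, Tlx3, Pou4f1, Lbx1 and Wt1. Of 8 sensory neuron genes 2 were higher and 3 lower, and of 10 primitive endoderm markers 1, Dab2, was higher, with summed medians of 7.38 TPM (0 to 13318) and 13.4 TPM (0 to 4036). Median gene numbers were 7366.5 and 7020. The part of these in the result was not tested.

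**Figure D4:**
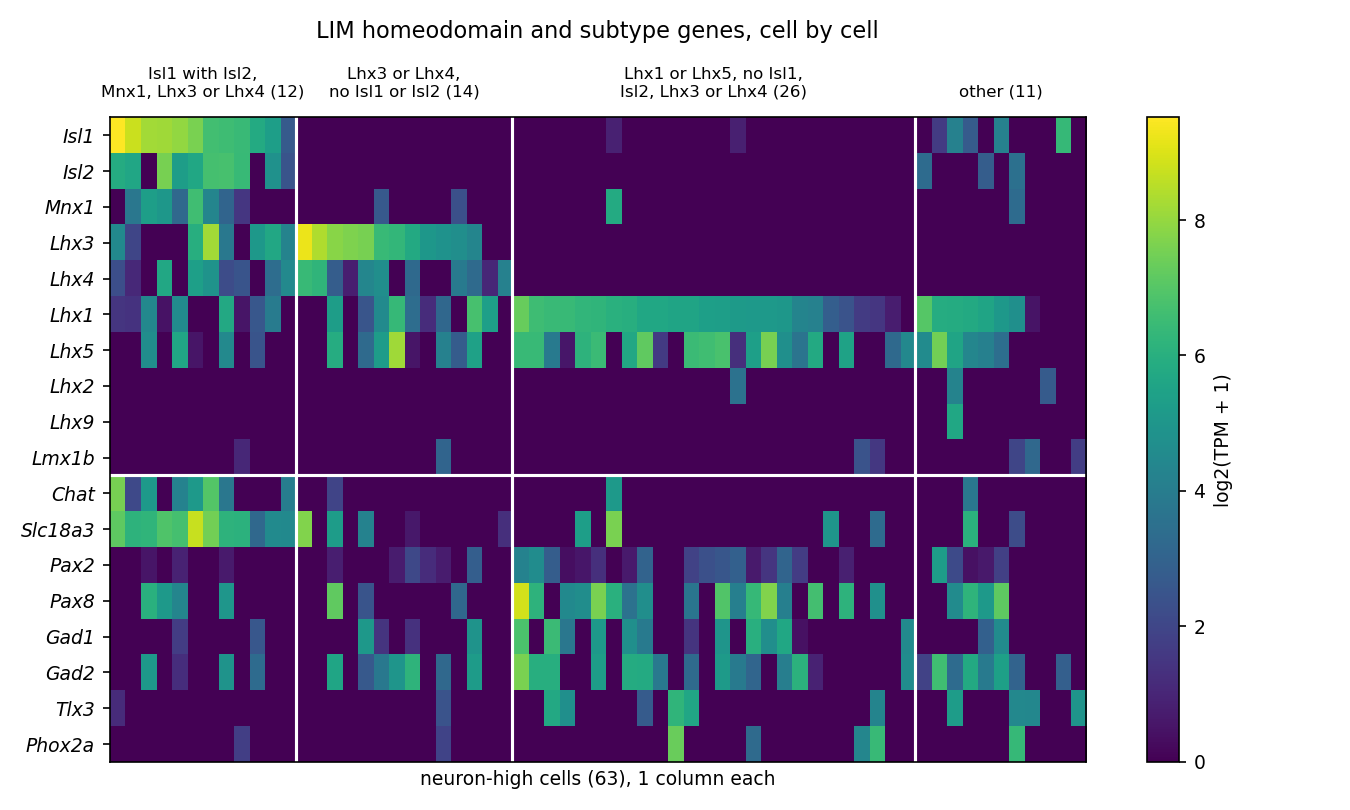
Level of the 10 genes and of 8 genes that did not define the groups (rows, log2(TPM + 1) as colour) in each of the 63 neuron-high cells (columns), grouped by combination and sorted within a group by its leading gene. Slc18a3 is filled across the 12 cells at the left, and Pax8, Gad1 and Gad2 are filled most often among the 26 cells with Lhx1 or Lhx5.

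Lhx1 or Lhx5 without Isl1 and Isl2 was the commonest class, in 36 of 63 neuron-high cells (57.1%, 44.05 to 69.5%). In the 26 of these that also had no Lhx3 or Lhx4, the median of Lhx1 was 40.2 TPM (0 to 157.05) and that of Lhx5 33.1 TPM (0 to 186.8). Genes of V0 and V1 interneurons and of inhibitory transmission accompanied them. Pax8 was in 17 of 26 (65.4%, 44.3 to 82.8%) and Pax2 in 12 (46.2%, 26.6 to 66.6%), and both are factors of inhibitory interneurons. Pax2 was in 0 of the 12 cells with the motor neuron combination, with an interval of 0 to 26.5%, and Pax8 was in 4 of them. Pax2 values lay near the bound of 1 TPM, with a highest value of 0.87 TPM in the 12 cells and a median of 0.695 TPM in the 26. Gad1 or Gad2, the GABA-making enzymes, were in 16 of 26 cells, 7 of the 14 with Lhx3 or Lhx4 and 4 of the 12 with the motor neuron combination. Gad1 and Gad2 were therefore not confined to the Lhx1 and Lhx5 cells. By set, Pax8 was in 9 of 14 and 8 of 12 such cells, and Gad2 in 8 of 14 and 6 of 12. In remaining cells with the same members, Pax2 was in 23 of 70 and Gad2 in 14 of 70, against 3.85% and 1.92% of those with no member.

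Set against the 13 neuron-high cells that had neither, the 50 with Lhx1 or Lhx5 were higher in all 7 V0 and V1 interneuron genes tested, where 12.7% of all tested genes were higher and 4.02% lower. Otp, a homeodomain factor of V1 and other interneurons, was in 20 of 50 cells and 0 of 13, and En1, which defines V1 interneurons, in 13 and 0. All 5 transmitter genes tested were higher as well, including the glutamate transporter genes Slc17a6 (8 of 50 and 0 of 13) and Slc17a7, so the transmitter genes were not of 1 kind. The higher genes were not of V0, V1 and transmitter lists alone, as 5 of 8 dorsal interneuron, 3 of 8 sensory neuron, 2 of 7 V2 interneuron and 3 of 10 neural progenitor genes were also higher. Of the 7 other members tested, Lhx3, Lhx4, Isl2, Lmx1b and Mnx1 were lower and none was higher. Every neuron-high cell had at least 1 member, so each of the 13 cells had to have a member other than Lhx1 and Lhx5. Lower values of the other members in the 50 cells are thus partly built into the split, and how far was not tested. Lhx4 was in 11 of 50 cells (mean 2.03 TPM) and 8 of 13 (24.8 TPM). Of 10 primitive endoderm markers, 5 were also lower in the 50 cells, with summed medians of 9.51 TPM (0 to 13318) and 70.8 TPM (0 to 11534). Their part in the result was not tested. Median gene numbers were 7321 and 6601, and only 13 cells stand on the low side.

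**Figure D5:**
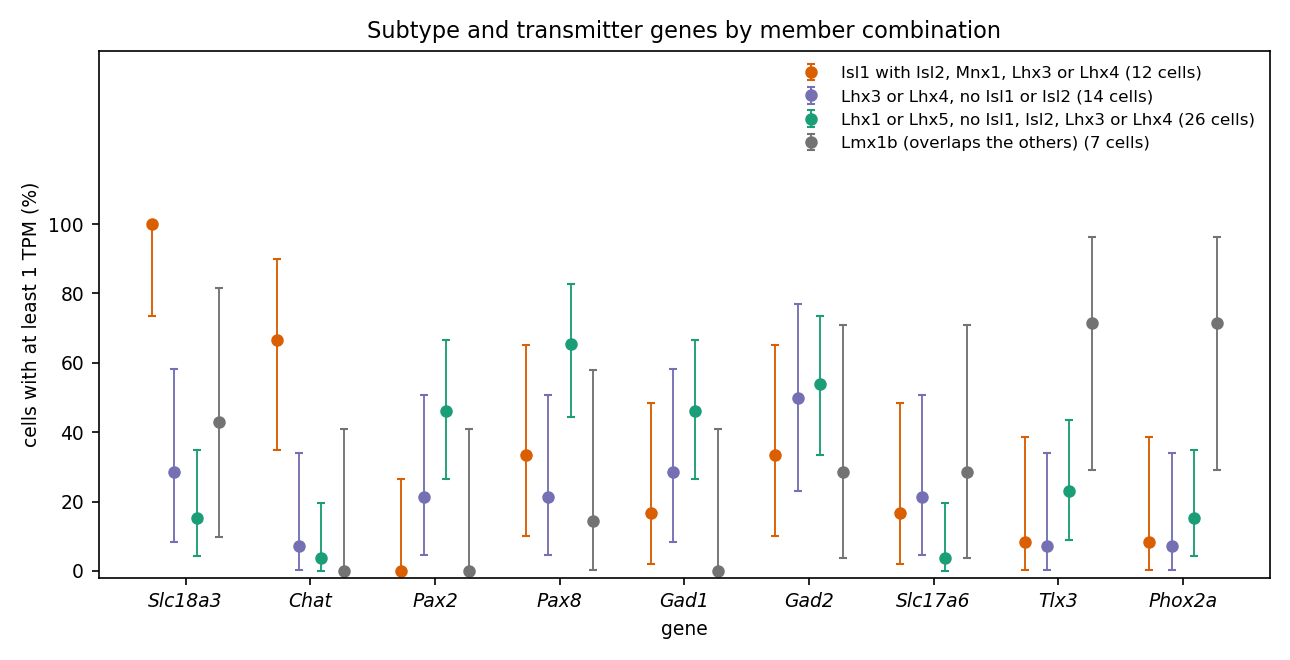
Share of neuron-high cells with at least 1 TPM (y axis, percent, with exact 95% intervals) of 9 subtype and transmitter genes (x axis), by the combination of LIM homeodomain genes and Mnx1. Slc18a3 stands at 100% for the motor neuron combination, Pax8 at 65.4% for Lhx1 or Lhx5, and Tlx3 and Phox2a at 71.4% for Lmx1b.

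Isl1 or Isl2 together with Lhx1 or Lhx5 was found in 14 of 63 neuron-high cells (22.2%, 12.7 to 34.5%), with a median of 8059 genes above 0. At 10 TPM it was 7 of 63 (11.1%), so this overlap rested in good part on low values. Isl1 with Lhx3 or Lhx4 was in 10 of 63 (15.9%).

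Lmx1b cells were few. In the 7 neuron-high cells the gene ran from 1.08 to 8.21 TPM, so none would be counted at 10 TPM. Tlx3, which specifies dorsal excitatory neurons, was in 5 of the 7 (71.4%, 29.04 to 96.3%), and in 6 of the 26 Lhx1 or Lhx5 cells (23.1%). Phox2a, a factor of noradrenergic and cranial motor neurons, was in 5 of 7 and 4 of 26, and Pou4f1, of sensory and dorsal neurons, in 4 of 7 and 7 of 26. The groups share 2 cells, as 2 of the 7 are among the 26. The intervals overlapped for each of these 3 genes. Gad1 was in 0 of 7, but Gad1 or Gad2 was in 2 of 7, both by Gad2. Over all 63 neuron-high cells Gad1 was in 20 and Gad2 in 33. The serotonergic genes Fev and Slc6a4 were in 0 of all 63 neuron-high cells, with an interval of 0 to 5.69%, and Tph2 was in 1. In the 8 remaining cells with Lmx1b, Tlx3 was in 3 and Phox2a in 0.

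Other subtype lists were compared between neuron-high and remaining cells by the same rule. Of 10 motor neuron genes tested, 4 were higher and none lower (Onecut1, Onecut2, Chat and Slc18a3). Of 7 V2 interneuron genes, 3 were higher (Gata2, Gata3 and Tal1). Of 7 V0 and V1 genes, 5 were higher (Evx1, En1, Pax2, Pax8 and Otp), and 2 were lower, namely the progenitor factor Dbx1 and Foxp2. Of 8 dorsal interneuron genes, 3 were higher (Tlx3, Pou4f1 and Dmrt3), and of 5 transmitter genes, 3 (Gad1, Gad2 and Slc17a6). Gata2 and Gata3 were the 2 tested genes of the serotonergic list and are shared with the V2 list. The V3 interneuron genes Sim1, Nkx2-2 and Nkx2-9 were each in 1 neuron-high cell. Of genes of other cell types, 3 of 8 sensory neuron genes, 1 of 10 primitive endoderm genes, 1 of 5 neural crest genes and 0 of 2 cardiac and early mesoderm genes were higher, and 7 neuron-high cells had at least 5 primitive endoderm markers. The primitive endoderm list had a median log2 fold of 3.38, while its summed level had a lower median in neuron-high (9.90 TPM, 0 to 13318) than in remaining cells (20.8 TPM, 0 to 1241). By definition, cells with at least 5 of these 10 markers were taken out of the remaining class but not out of the neuron-high class. The fold and the 1 call of this list therefore cannot be read as a difference between neurons and other neural cells. The visceral endoderm list had 0 of 7 genes called.

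The genes whose levels tracked each member most closely were named by Pearson correlation of log2(TPM + 1) over all distinct cells, a description across cells of 1 labelled group that share library chemistry and differ in gene number. Isl1 tracked Slc18a3 (r = 0.70), the synaptic vesicle carrier Slc10a4 (0.67) and Mnx1 (0.65). Isl2 tracked Rasgef1c (0.68), Slc10a4 (0.65) and Slc18a3 (0.62). Mnx1 tracked Isl1, Slc18a3 (0.63) and Slc10a4 (0.62). Lhx4 was also close to Slc10a4 (0.59), Slc18a3 (0.55) and Rasgef1c (0.52), whereas Lhx3 was closest to Lhx4 (0.51), Slc18a3 (0.45) and the neural splicing factor Srrm4 (0.42). Lhx1 tracked Lhx5 (0.72), Dcx (0.66) and the nicotinic receptor subunit Chrna3 (0.66). Lhx5 tracked Lhx1, the commissural axon receptor Robo3 (0.62) and Pax2 (0.61). In set 1 and set 2 alone, the Isl1 and Slc18a3 value was 0.80 and 0.63, and the Lhx1 and Lhx5 value 0.73 and 0.70. Some named pairs fell under the bound of 0.4 in a set, namely Lhx4 and Rasgef1c at 0.73 and 0.25, Lhx3 and Srrm4 at 0.34 and 0.43, and Lhx3 and Slc18a3 at 0.51 and 0.39. For Lhx2 no gene reached the bound of 0.4, and Lhx9 and Lmx1b were in fewer than 20 cells. Within the 63 neuron-high cells, Isl1 and Isl2 reached 0.75 and Lhx3 and Lhx4 0.70, while Lhx1 was at 0.38 with Dcx and 0.36 with Chrna3, and Lhx3 at 0.31 with Slc18a3 and 0.31 with Srrm4.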

How the data were processed

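Per the labels' protocols, a Fluidigm C1 captured the cells, and SMART-Seq V4 cDNA went into Nextera XT libraries. STAR, RSEM and the build mm10 are named in the submitters' processing notes. The annotation behind the gene names is not given in the sources used here. Values deposited by the authors, 1 table of 464 columns, carry no stated unit and were taken as TPM, a unit that RSEM, listed in those notes with no role or order of tools, can write. Column sums were 54.2 to 95.1% of a full TPM total. TPM keeps no depth, so intervals count cells only.

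The 458 columns kept had 2000 or more genes above 0 and a mitochondrial share of 20% or less. The set 1 column of each of 55 near-copy pairs (Pearson r of at least 0.93) was used, which left 403 distinct cells, of which 63 were neuron-high, 112 endoderm-marked and 228 remaining. Means had 0.01 TPM added before a fold, and genes detected in at least 10 of all distinct cells were tested by the size rule. Comparisons within neuron-high cells thus count as tested some genes, such as Tbx2, Tbx3 and Ptf1a, that no neuron-high cell had. Such genes also lower the shares of all tested genes given there. Cells of 1 sample are not replicates, so no p-values are given. Some genes of the lists are not reported here. Doublets were not called, since callers need counts. The text names all 10 members, the 3 genes with the highest r of at least 0.4 for members in at least 20 cells, and list genes on which a count turns. The members and the lists were chosen with earlier results of these data known. The sets Lhx3 or Lhx4 without Isl genes and Lhx1 or Lhx5 without Isl, Lhx3 and Lhx4, the comparisons by Lhx1 or Lhx5 and by Lhx3 or Lhx4, the endoderm split and the readings of marker genes in each set were added after values were seen. Alternatives covered the detection bound, near copies, column sets, cell filter, the neuron and endoderm bounds, the fold scale and rescaling. Symbols of 20780 of 21973 genes matched RefSeq on GRCm38.p6. Python 3.11.15, numpy 2.4.6, pandas 2.3.3, scipy 1.17.1 and matplotlib 3.10.9 were used.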

Additional observations from a re-analysis of the deposited data

How the results depend on the processing

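Of the alternatives to the summary values above, 99 left them within the replicate-free bound (the 95% interval, or 1.5 times for a count), 8 moved them further and none reversed a direction. For values of single genes, 14 alternatives moved them and 8 lost a call, and the uncalled Lmx1b and Lhx2 changed sign with the column set. Counting only genes among the 4000 highest of a cell gave 2 members in at least 10% of cells in place of 4, at least 1 member in 80.95% and at least 2 in 50.8% of neuron-high cells, and Isl1 or Isl2 with Lhx1 or Lhx5 in 4.76%. A bound of 10 TPM gave 88.9% with at least 1 member and 11.1% with the Isl and Lhx1 or Lhx5 overlap. With the 4 neuron genes each at 50 TPM or more, 92.9% of the 28 cells had at least 2 members. With a difference of mean log2(TPM + 1) of at least 1 in place of the fold, 4 members were higher in place of 7; Lhx4 (0.98), Isl2 (0.93) and Mnx1 (0.55) fell under the bound. The cause of these shifts was not tested. The motor neuron combination stayed between 17.2% and 25% of neuron-high cells over its 15 alternatives, and Lhx1 or Lhx5 without Isl1 and Isl2 between 50.8% and 64.3%. Rescaling moved the median of all tested genes by 0.06 on the log2 scale. Leaving out the 7 neuron-high cells with at least 5 endoderm markers was added after the data were seen. Depth is unknown, so a gene not detected in a cell is not shown to be absent from it. No paired analysis was possible because all cells belong to 1 group.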

Other observations

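Lhx6, a LIM homeodomain gene that was no member of the set, was detected in 7 endoderm-marked cells (6.25%), 2 remaining cells (0.877%) and 0 of 63 neuron-high cells. Its highest value was 24.2 TPM.

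Lhx2 was the member least tied to the neuron genes, as 15 of its 24 cells had none of Nefl, Nefm, Mapt and Stmn2 at 10 TPM or more. Of the 18 remaining cells with Lhx2, 15 had Mki67 (83.3%) and 18 had Pax6 (100%). These shares were near the 76.7% and 94.3% of remaining cells without Lhx2.

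Among neuron-high cells, 4 of the 12 with the motor neuron combination had Gad1 or Gad2 beside Chat or Slc18a3. The same held for 2 of the 14 with Lhx3 or Lhx4 but neither Isl1 nor Isl2. It held for 0 of the 26 with Lhx1 or Lhx5 and none of Isl1, Isl2, Lhx3 and Lhx4.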
